A study of Homo sapiens with 6 samples.

Results

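Transcript levels of 10 genes that mark endoderm, extraembryonic tissues and lateral mesoderm were compared between undifferentiated human embryonic stem cells (hESCs) and neuromesodermal progenitor-like cells (NMP-L) made from them. The genes were *GATA2*, *GATA3*, *GATA4*, *GATA6*, *HAND1*, *ISL1*, *SOX17*, *HHEX*, *CXCR4* and *CER1*, taken by symbol from a table of 27672 genes, in which all 10 were found. The comparison asks whether lineages other than the intended one were transcribed at day 3. Both groups were wild-type H9, an established human embryonic stem cell line, with 3 biological replicates each. The hESC libraries (day 0) came from untreated cells which, per the labels, were grown on fibronectin in DEF medium. That medium held bFGF at 30 ng/ml and Noggin, an inhibitor of BMP signalling, at 10 ng/ml. The NMP-L libraries (day 3) came from cells kept for 3 days in N2/B27 medium with bFGF at 20 ng/ml and, at 3 µM, the GSK3 inhibitor CHIR99021, which activates Wnt signalling. The study's Methods give another stem cell medium and add inhibitors of BMP and TGFβ signalling shortly before day 3, and the labels of the libraries mention no such inhibitors for day 3. All 6 libraries therefore derive from 1 cell line, and the groups differ in medium and signalling factors together.

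GATA factors are zinc finger proteins that bind DNA at GATA letters. *GATA4* and *GATA6* are known for endoderm, including the primitive endoderm that lines the yolk sac, and for heart, whereas *GATA2* and *GATA3* are known for trophoblast and amnion, with *GATA2* also required in blood progenitors. Definitive endoderm forms in the anterior primitive streak under Nodal signalling, and its cells are usually recognised by *SOX17*, *CXCR4*, *HHEX* and *CER1* together. *HAND1* and *ISL1* are transcription factors of lateral mesoderm and its cardiac derivatives and of amnion.

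Single-end reads of 76 bp were obtained from polyadenylated RNA. The deposited values were expected counts and TPM, a level scaled for transcript length and library total. Library totals lay between 19454543 and 23036426 expected counts. Correlations of log2 CPM over genes were between 0.988 and 0.9915 within a group and between 0.9223 and 0.9301 across the groups. A count of 3 in 1 library was used as the detection floor and corresponded to between 0.125 and 0.16 CPM (counts scaled to the library total after TMM normalization). As a check of the labels, *T* (brachyury) had 0, 0 and 2 counts in hESCs against 537, 293 and 629 in NMP-L, and *CDX2*, a posterior factor, had 0, 1 and 0 against 522, 326 and 607. The pluripotency genes *NANOG* and *POU5F1* were lower in NMP-L, with log2 fold changes of -2.59 and -0.92. The same check list held *SP5* (7.53) and *SOX1* (4.72), both higher in NMP-L. It also held *TBX6*, which was lower (-1.24), and *SOX2*, which was not called different (0.06). Of 15517 genes that passed the expression filter, 55.8% differed between the groups (edgeR's quasi-likelihood test, Benjamini-Hochberg adjusted p under 0.05), 29.1% being higher and 26.7% lower in NMP-L. Higher genes made up 52.1% of those called, against 87.5% when counts were taken relative to *GAPDH*, 25.3% relative to *HPRT1*, and 61.0% on TPM.

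*GATA2* and *HHEX* were higher in NMP-L, and they were the only markers of the 10 that the test called. *CXCR4* was above the floor in every library and was not past the threshold. The other 7 markers failed the expression filter, and 3 of them, *HAND1*, *SOX17* and *CER1*, never exceeded 3 counts in any library. The 2 calls among 3 markers tested stand beside the 55.8% of all genes that differed, and the 3 markers never above the floor beside 34.5% of the 27672 genes. Neither share was set apart by a test.

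**Figure D1:**
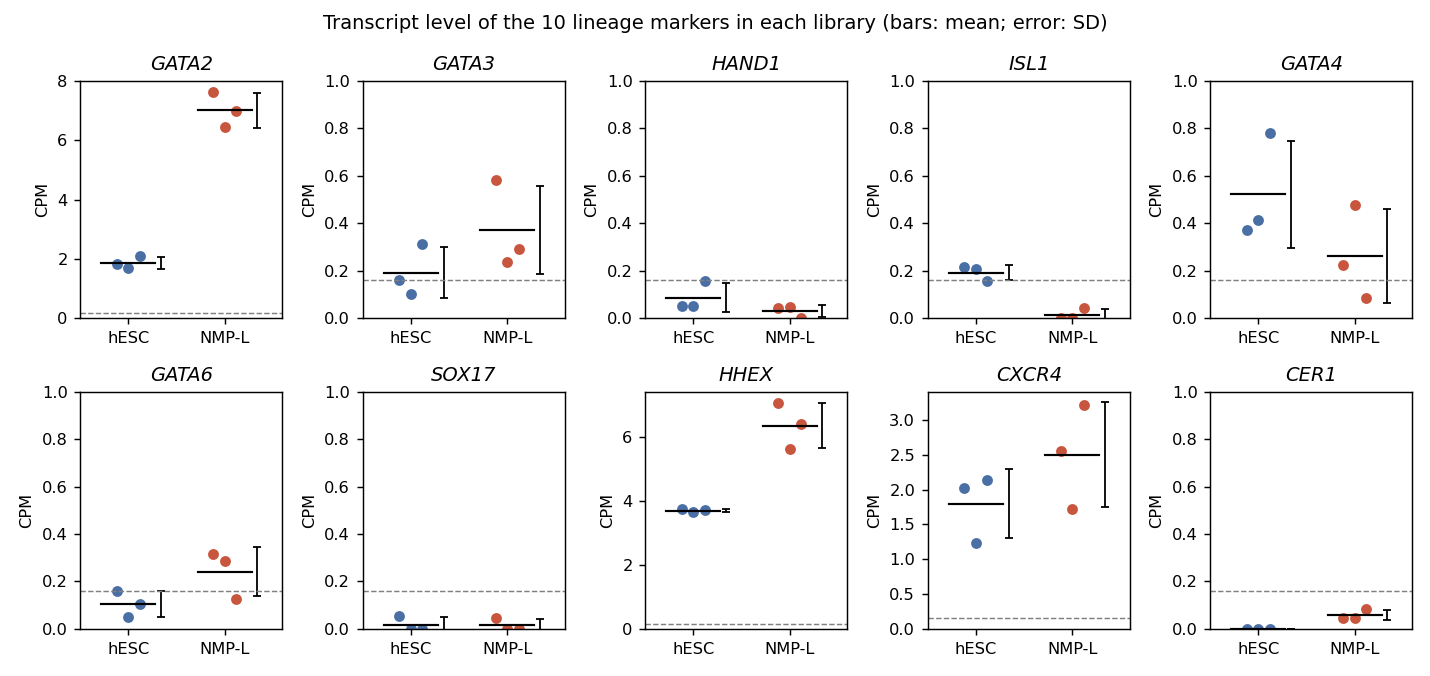
Level of each of the 10 markers in CPM (y axis, a separate scale for each gene) in the 3 hESC and 3 NMP-L libraries. Points are libraries, horizontal bars are means, error bars are SD, and the dashed line is the highest detection floor of any library, 0.16 CPM. The NMP-L points of *GATA2* and *HHEX* lie above all hESC points, and *HAND1*, *SOX17* and *CER1* lie below the line throughout.

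*GATA2* (GRCh37 chr3:128198270-128212044, minus strand) had 34, 33 and 40 counts in hESCs against 170, 135 and 167 in NMP-L. All NMP-L libraries were above all hESC libraries, as they also were for *HHEX*, beside 32.1% of the tested genes with the groups apart in this direction and 61.6% in either. In CPM the level was 1.82, 1.70 and 2.09 in hESCs against 7.63, 6.44 and 6.98 in NMP-L, or 1.87 ± 0.20 and 7.02 ± 0.599 (mean ± SD, n = 3 per group). The log2 fold change was 1.91 with a standard error of 0.17 and a 95% interval of 1.54 to 2.27, a 3.75-fold rise (edgeR, adjusted p = 2.3e-06). Rises of at least 2-fold that passed this test were found for 9.38% of the tested genes. An exact two-sided permutation test of *GATA2* gave p = 0.1, and no smaller value is possible with 3 libraries in each group. The 5′ part of *GATA2* overlaps *GATA2-AS1* on the opposite strand (chr3:128208055-128221813), which had counts of 6, 2 and 0 in hESCs and of 5, 12 and 7 in NMP-L. The sources used here do not state whether counting used strand, so reads in the overlap cannot be told apart between these genes.

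*GATA3* (chr10:8087341-8117161, plus strand), the family member that acts with *GATA2* in trophoblast, was near the detection floor. Its counts were 3, 2 and 6 in hESCs and 13, 5 and 7 in NMP-L. The largest value came from 1 NMP-L library, and the groups overlapped. Over the groups, 25 counts against 11 gave an NMP-L to hESC ratio of 1.94 after scaling for depth, with an exact 95% counting interval of 0.92 to 4.37. Such intervals cover counting error only and leave out the spread between libraries. In a fit of 20918 genes with at least 1 count in total, *GATA3* had an adjusted p of 0.24 (edgeR), where 43.3% of the genes were called. A rise of the size measured for *GATA2* lies within the counting interval of *GATA3*, so the depth does not separate these genes by their change.

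*HHEX* (chr10:94449712-94455404, plus strand), a homeobox factor of anterior endoderm that also acts in blood and endothelial precursors, had the highest TPM of the 10 markers in both groups. It had 70, 71 and 71 counts at day 0 and 157, 118 and 153 at day 3. The hESC libraries were nearly equal, at 3.74, 3.65 and 3.71 CPM, and the NMP-L libraries were spread from 5.63 to 7.05 CPM without reaching down to them. The means were 3.7 ± 0.0434 and 6.36 ± 0.712 CPM (SD, n = 3 each). The log2 fold change was 0.78 with a standard error of 0.15 and a 95% interval of 0.45 to 1.11, or 1.72-fold (edgeR, adjusted p = 0.00092), and relative to *HPRT1* counts it was 0.49 and no longer past the threshold (adjusted p = 0.11). The exact permutation p was 0.1. The interval of *HHEX* ended below that of *GATA2*, at 1.11 against 1.54, and the difference between the genes' changes was not tested.

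The sequences upstream of the gene starts are shown for the 2 markers that rose and for *CER1*, which was never above the floor, chosen among the markers' windows because they span a wide range of CpG content, a property of promoters that are open in many cell types. Each is 250 bases on the gene's own strand from a RefSeq promoter table (GRCh38.p14), matched to a single place in GRCh37, 5′ to 3′, with CpG dinucleotides in capitals. They lie at chr3:128212045-128212294 on the minus strand for the more upstream start of *GATA2*, inside the span of *GATA2-AS1*, at chr10:94449462-94449711 on the plus strand for *HHEX*, and at chr9:14722732-14722981 on the minus strand for *CER1*.
GATA2: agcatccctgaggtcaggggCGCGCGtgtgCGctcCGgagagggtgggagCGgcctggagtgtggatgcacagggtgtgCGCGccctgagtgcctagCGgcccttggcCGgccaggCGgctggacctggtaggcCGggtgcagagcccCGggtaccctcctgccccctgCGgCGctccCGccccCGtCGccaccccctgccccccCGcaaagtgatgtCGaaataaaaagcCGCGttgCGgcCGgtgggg
HHEX: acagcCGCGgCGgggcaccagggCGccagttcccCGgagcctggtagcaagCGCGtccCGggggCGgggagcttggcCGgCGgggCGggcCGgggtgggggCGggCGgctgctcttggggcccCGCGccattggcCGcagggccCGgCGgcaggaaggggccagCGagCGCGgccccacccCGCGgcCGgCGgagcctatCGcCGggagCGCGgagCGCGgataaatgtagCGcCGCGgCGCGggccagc
CER1: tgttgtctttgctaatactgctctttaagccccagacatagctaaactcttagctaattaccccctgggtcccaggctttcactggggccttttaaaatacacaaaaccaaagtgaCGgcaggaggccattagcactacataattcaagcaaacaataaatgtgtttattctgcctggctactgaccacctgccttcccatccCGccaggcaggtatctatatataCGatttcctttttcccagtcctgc
The *HHEX* sequence holds 38 CpG, that of *GATA2* 24 and that of *CER1* 3, against a median of 11 over 34796 such windows of all genes, at percentiles of 96.7, 76.3 and 22.9. GC content was 81.2% for *HHEX*, 72.8% for *GATA2* and 45.2% for *CER1*, against a median of 58.0%. A relation of CpG count to the level or the change of the markers was not tested. *HAND1*, also never above the floor, has 16 CpG upstream of its start (percentile 59.1). The first window of *CXCR4*, which was not past the threshold, has 24, as many as the *GATA2* sequence shown. Counts differed between windows of a gene, as the further *CXCR4* windows have 12 and 8 and the other *GATA2* window has 18. *ISL1* has 27 CpG upstream of its start (chr5:50679032-50679281, plus strand) and was called lower in NMP-L in the fit without the filter.

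The 16 windows of the 8 markers outside chromosome 8 were searched on both strands for TCF/LEF letters (CTTTGA or CTTTGT), the core bound by the nuclear factors of Wnt signalling, and for GATA letters (AGATAA and its variant with a final G, AGATAG, as well as the forms that begin with T, TGATAA and likewise with a final G, TGATAG). The reverse complement of CTTTGT reads ACAAAG and is also bound by SOX factors. TCF/LEF letters were present in 5 of the 16 windows and in 22.8% of all windows, and GATA letters in 1 of the 16 and in 22.4% of all windows. The windows with TCF/LEF letters belong to *CXCR4*, *GATA3* and *HAND1*, and the window with GATA letters to *ISL1*, so that no window of a marker held both kinds. Neither of these letter sets was found upstream of *GATA2*, *HHEX* or *CER1*. These matches describe letters in the windows and say nothing of binding in these cells. Windows of *GATA4* and *SOX17*, on chromosome 8, were not analysed here.

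*CXCR4* (chr2:136871919-136876747, minus strand), the receptor of the chemokine CXCL12 and a surface marker used to sort definitive endoderm, was not called different between the groups. Its counts were 38, 24 and 41 in hESCs and 57, 36 and 77 in NMP-L. Replicate 2 was the lowest library of its group in both, and the NMP-L replicate 2 lay below 2 hESC libraries, so the groups overlapped. The means were 1.8 ± 0.494 and 2.5 ± 0.753 CPM (SD, n = 3 each). The log2 fold change was 0.48 with a standard error of 0.28 and a 95% interval of -0.14 to 1.10 (edgeR, adjusted p = 0.17), which includes both no change and a 2-fold rise. The exact permutation p was 0.3. Relative to *GAPDH* counts the log2 fold change was 1.05 and passed the threshold (adjusted p = 0.017).

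**Figure D2:**
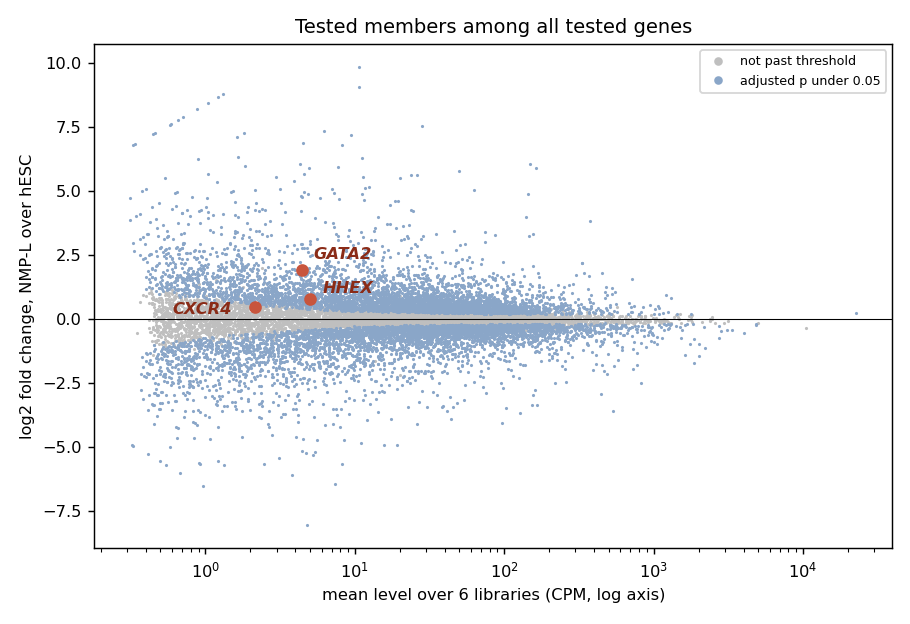
Log2 fold change of NMP-L over hESC (y axis) against mean CPM over the 6 libraries (x axis, log scale) for the 15517 genes tested. Blue points have an adjusted p under 0.05 in edgeR's test, grey points do not, and the red points are *GATA2* at 1.91, *HHEX* at 0.78 and *CXCR4* at 0.48.

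*GATA4* and *GATA6*, which act together in primitive endoderm and in the heart, were represented by few reads. *GATA4* (chr8:11534468-11617511, plus strand) had counts of 7, 8 and 15 in hESCs and of 5, 10 and 2 in NMP-L. The groups overlapped, and 30 counts against 17 gave an hESC to NMP-L ratio of 2.07 (exact 95% counting interval 1.1 to 4.0). That interval leaves out equality, but the tests that include the spread between libraries did not pass (edgeR without the filter, adjusted p = 0.18, and exact permutation p = 0.3). *GATA6* (chr18:19749550-19782491, plus strand) had counts of 3, 1 and 2 in hESCs and of 7, 6 and 3 in NMP-L. Only 2 NMP-L libraries were above the floor, and the ratio of NMP-L to hESC was 2.28 (0.846 to 7.1) with an adjusted p of 0.24 in the same fit. The transcripts of these 2 factors thus leaned in opposite directions, neither past the threshold in that fit, and the groups overlapped for both. *GATA3-AS1* and *GATA6-AS1*, antisense genes at *GATA3* and *GATA6*, were listed at 0 in all 6 libraries.

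*ISL1* (chr5:50679282-50690564, plus strand) was the only marker called lower in NMP-L in the fit without the filter. Its counts were 4, 4 and 3 in hESCs and 0, 0 and 1 in NMP-L. Every NMP-L library was below every hESC library, at counts so low that 11 reads against 1 carry the comparison. Among the 20918 genes of that fit the groups were apart in 50.8%, with NMP-L higher in 26.3% and lower in 24.5%. The hESC to NMP-L ratio was 12.9 with an exact counting interval of 1.87 to 555 (edgeR without the filter, adjusted p = 0.026), where 20.5% of the genes in that fit were called lower. The exact permutation p was 0.1. *ISL1* did not pass the filter, and no fold is given for it in the main comparison.

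*HAND1* (chr5:153854532-153857787, minus strand), a bHLH factor of lateral mesoderm, extraembryonic mesoderm and trophoblast, had counts of 1, 1 and 3 in hESCs and of 1, 1 and 0 in NMP-L. *SOX17* (chr8:55370495-55373452, plus strand), an HMG-box factor that defines definitive endoderm and is also used for primitive endoderm, had 1 read in 1 library of each group. *CER1* (chr9:14719722-14722731, minus strand), a secreted inhibitor of Nodal and BMP proteins made by anterior endoderm, had no read in hESCs and counts of 1, 1 and 2 in NMP-L. None of these values was above the floor of 3 counts, so no fold is given, and a difference was not detectable at this depth. In bulk RNA a low level cannot be told apart between a few cells of a type and little RNA in each cell.

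Compared per length, in TPM, the order of the markers in hESCs was *HHEX* (4.43 ± 0.137), *CXCR4* (2.28 ± 0.658), *GATA2* (1.15 ± 0.157), *GATA4* (0.36 ± 0.176) and *ISL1* (0.143 ± 0.0208), with ranges that did not overlap between neighbours. *GATA3*, *HAND1*, *GATA6*, *SOX17* and *CER1* followed, with neighbouring ranges that overlapped. In NMP-L *HHEX* (8.14 ± 0.958) was followed by *GATA2* (4.58 ± 0.444) and *CXCR4* (3.39 ± 1.13), whose ranges overlapped, so that *GATA2* and *CXCR4* had exchanged places with no clear order between them at day 3. *GATA3* (0.267 ± 0.127), *GATA4* (0.193 ± 0.131), *GATA6* (0.14 ± 0.0529) and *CER1* (0.113 ± 0.0493) came next with overlapping neighbours, above *HAND1*, *ISL1* and *SOX17*. *HHEX*, *GATA2* and *CXCR4* stood at the percentiles 62.0, 55.2 and 55.1 of mean TPM among all genes of the table, and the other 7 between 26.9 and 40.3.

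The summed TPM of the 10 markers was 8.98, 7.41 and 9.62 at day 0 and 18.1, 14.2 and 18.4 at day 3. *GATA2*, *HHEX* and *CXCR4* made up between 88.1% and 94.8% of that sum in 5 libraries and 96.8% in NMP-L replicate 3. The other 7 markers together gave 19, 16 and 29 counts in hESCs and 28, 23 and 15 in NMP-L, with overlapping groups. The rise of the sum therefore lay in the 3 abundant markers, and the number of markers above the floor was 5 in each hESC library and 6, 6 and 4 in the NMP-L libraries.

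Other genes were taken from lists of the same lineages and from lists of GATA family members, their cofactors and partners of the markers. The counts over all these lists are therefore not of lineage genes alone. Of 84 such genes that are not among the 10, 43 passed the filter, 16 were higher and 16 lower in NMP-L, and 18 were never above the floor. Over all genes 29.1% of those tested were higher, 26.7% were lower, and 34.5% of the table was never above the floor. These shares are also the background of the lists that follow. Relative to *GAPDH* the split was 24 higher and 9 lower. The median log2 fold change of the 43 genes was -0.03, against 0.03 over all genes tested.

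Of 17 definitive endoderm genes, 9 were tested, 5 were higher and 2 lower, with a median log2 fold change of 0.78, beside 29.1% higher and 26.7% lower among all genes tested. Beside *HHEX* the higher genes were *FOXA2*, a forkhead factor of endoderm, notochord and floor plate, *EOMES* and *MIXL1*, transcription factors of the primitive streak, and *PRDM1*, a repressor also used in germ cells. *FOXA2* had counts of 0, 5 and 2 in hESCs and of 473, 264 and 535 in NMP-L, the largest rise of the list (log2 fold change 7.19, SE 0.42, edgeR adjusted p = 9.6e-08). With hESC counts this near the floor the size of the rise depends on the method, and limma on log2(TPM + 1) gave 4.0. *EOMES* had 2, 1 and 0 against 46, 48 and 64 counts, a ratio of 44.9 with an exact counting interval of 15.1 to 220.0. These genes rose while *SOX17* and *CER1* were not detected above the floor in the same libraries. *MIXL1* rose 4.45-fold (log2 2.15, SE 0.21) and *PRDM1* by 1.79 on the log2 scale (SE 0.29). *FOXA3* and the receptor gene *KIT* were lower, at log2 fold changes of -0.54 and -0.48, and relative to *GAPDH* both calls were lost, at 0.01 (adjusted p = 0.94) and 0.08 (adjusted p = 0.58). *LHX1*, like *CXCR4*, was not past the threshold (-0.32, adjusted p = 0.53).

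Of 15 genes of primitive endoderm and yolk sac, 6 were tested, none was higher and 4 were lower, with a median of -0.38. At an unadjusted p under 0.05 the count of higher genes was also 0, as it was by DESeq2. In the fit without the filter 14 genes were tested, and 1 was higher, *APOA2*, and 6 were lower, with *AFP* and *APOA1* among them. Over all genes of that fit 22.7% were higher and 20.5% lower. *PDGFRA*, a receptor of primitive endoderm and many mesodermal cells, had a log2 fold change of -1.53 (SE 0.21), and the basement membrane gene *COL4A1* of -0.66 (SE 0.08). The laminin gene *LAMA1* (-0.27) and the adaptor gene *DAB2* (-0.49) were lower with smaller margins. Relative to *GAPDH* the list had 3 higher genes and 1 lower, *LAMA1* being higher (0.28, adjusted p = 0.032), and the calls of *COL4A1* (-0.11, adjusted p = 0.38) and *DAB2* (0.05, adjusted p = 0.78) were lost. The lower genes include basement membrane components that many cell types produce, and *GATA4*, *GATA6* and *SOX17* of the same list were not tested. The summed TPM of the list was 136 to 159 in hESCs and 111 to 112 in NMP-L. Most of it came from *COL4A1*, with mean TPM of 111 in hESCs and 74.7 in NMP-L.

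Of 14 amnion genes, 6 were tested, and 4 were higher and 2 lower, with a median of 0.93. *IGFBP5* and *IGFBP3*, secreted binding proteins of insulin-like growth factors that many tissues make, rose 4.77-fold and 3.00-fold. The transcription factor gene *TFAP2C* was higher by 0.28, and at -0.02 it was no longer higher relative to *HPRT1*. *GABRP*, a GABA receptor subunit expressed in amnion, changed by -1.34 (SE 0.13) and *BAMBI*, a decoy receptor and BMP target, by -1.05 on the log2 scale. *GATA2* was the member among the higher genes, whereas *ISL1* and *GATA3*, also on this list, did not pass the filter.

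Of 17 trophoblast genes found, 6 were tested, 3 were higher and 1 lower, and 8 were never above the floor. The higher genes were *GATA2*, *TFAP2C*, whose direction was lost relative to *HPRT1*, and *KRT7*, a keratin of simple epithelia, which rose 2.35-fold (log2 1.23, SE 0.14). *HLA-G*, a histocompatibility gene of extravillous trophoblast with fractional counts from shared reads, fell by 4.20 on the log2 scale. Its counts were 46.17, 38.25 and 47.59 in hESCs and 2.02, 4.03 and 2.09 in NMP-L, near the floor. The hESC to NMP-L ratio was 19.0 with an exact counting interval of 9.53 to 45.7. *DLX3* (1.07, adjusted p = 0.089) and *PGF* (-0.35, adjusted p = 0.16) were not past the threshold. *CGB5*, *VGLL1* and *ERVFRD-1* had 0 counts in all 6 libraries. *CDX2*, which rose in the check of the labels, was not part of this list or of the endoderm lists, so their counts leave it out.

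**Figure D3:**
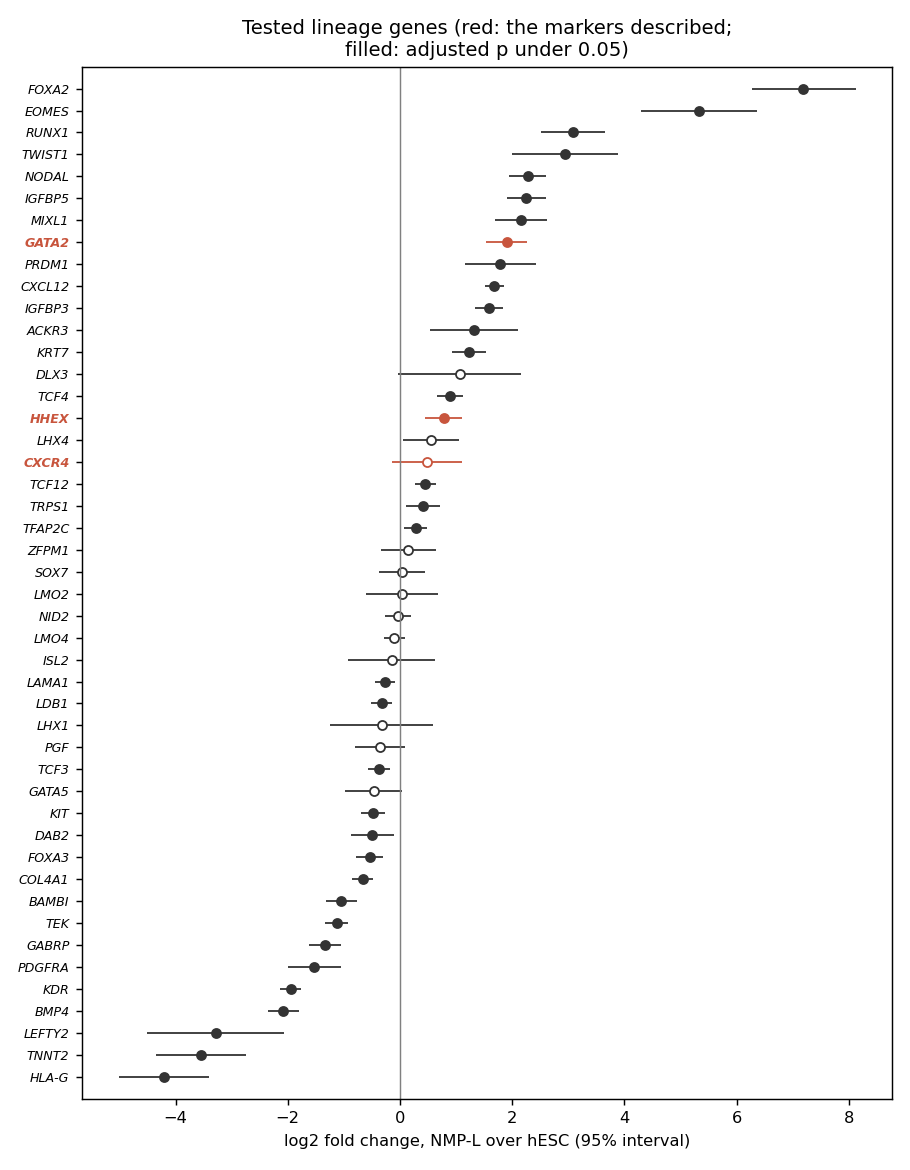
Log2 fold change of NMP-L over hESC with its 95% interval (x axis) for each tested marker and list gene (y axis). Red names are the markers described, and filled circles have an adjusted p under 0.05. The fitted values of *EOMES*, *TWIST1* and *LEFTY2*, which have 1 group at or under the floor, depend on the prior count. The same limit applies to genes with 1 group reaching down to the floor, such as *FOXA2*, *HLA-G* and *TNNT2*. *GATA2* lies at 1.91 and *HHEX* at 0.78, and the interval of *CXCR4* runs from -0.14 to 1.10.

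Of 14 genes of cardiac and lateral mesoderm, only 3 were tested and all 3 were lower in NMP-L, also relative to *GAPDH* and to *HPRT1*, beside 26.7% lower among all genes tested. In the fit without the filter all 14 were tested, and 4 were lower and 1 higher. The higher gene was *FOXF1*, with counts of 6, 2 and 3 in hESCs and of 8, 11 and 16 in NMP-L (log2 fold change 1.41, edgeR without the filter, adjusted p = 0.048). The receptor gene *KDR* had a log2 fold change of -1.95 (SE 0.08), *BMP4*, the ligand that patterns lateral mesoderm, of -2.08 (SE 0.13), and *TNNT2*, cardiac troponin T, of -3.55 (SE 0.36). The NMP-L counts of *TNNT2* were 3, 4 and 14, reaching down to the floor. The count of higher genes was 0 at an unadjusted p under 0.05 and by DESeq2. *ISL1*, *HAND1*, *GATA4* and *GATA6* belong to this list and were not tested. The summed TPM was 154 to 166 in hESCs and 41.3 to 48.0 in NMP-L. Most of it came from *KDR*, with mean TPM of 136 in hESCs and 37.7 in NMP-L.

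Of 11 blood and endothelial genes, 5 were tested and 3 were higher, namely *GATA2*, *HHEX* and *RUNX1*, a runt factor of blood formation, which rose 8.48-fold (log2 3.08, SE 0.26, edgeR adjusted p = 1.9e-06) to between 3.23 and 4.10 CPM. *TEK*, an endothelial receptor, fell by 1.13, and *LMO2*, a cofactor of GATA factors in blood, was at 0.03 (adjusted p = 0.93). The list thus held both markers that rose, whereas its summed TPM was 25.1 to 26.9 in hESCs and 24.3 to 25.6 in NMP-L. That sum holds opposite changes. Mean TPM of *TEK* went from 17.5 in hESCs to 8.5 in NMP-L. *HHEX* went from 4.43 to 8.14, *GATA2* from 1.15 to 4.58 and *RUNX1* from 0.15 to 1.42.

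Among 12 GATA family and cofactor genes, 7 were tested. *GATA2* and the atypical GATA factor gene *TRPS1* (0.41, SE 0.14) were higher, the latter without passing the threshold relative to *HPRT1*, and the adaptor gene *LDB1* was lower (-0.32), but higher relative to *GAPDH* (0.23, adjusted p = 0.038). *GATA5* (-0.47, adjusted p = 0.10), *ZFPM1* (0.15, adjusted p = 0.60) and *LMO4* (-0.10) were not past the threshold. *GATA1* had counts of 3, 3 and 2 in hESCs and none in NMP-L, at or under the floor.

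Among 10 genes that act with *CXCR4* or *CER1*, 6 were tested, 3 were higher and 2 lower. *CXCL12*, the ligand of *CXCR4*, was abundant and rose from between 62.0 and 67.1 CPM to between 202 and 217 CPM, or 3.21-fold (log2 1.68, SE 0.08). *ACKR3*, the second receptor of this ligand, rose 2.5-fold (SE of log2 0.36, adjusted p = 0.0080). The ligand and its other receptor thus rose past the threshold, whereas *CXCR4* did not, and the difference between the receptors was not tested. *NODAL*, a ligand that CER1 binds, rose 4.84-fold (log2 2.28, SE 0.15), and *BMP4* fell. *LEFTY2*, another Nodal inhibitor, which shares reads with *LEFTY1*, had a ratio of hESC to NMP-L of 10.3 with an exact counting interval of 4.36 to 28.9, the NMP-L libraries being at or under the floor.

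Of 10 genes for dimer partners of HAND1 or LIM-domain partners of ISL1, 8 were tested, with a median of 0.18. Of the other 2, *LHX3* failed the filter and *HAND2* was never above the floor, with 1 count in 1 library. *TCF4* (0.89) and *TCF12* (0.45), bHLH partners, were higher, *TCF12* not past the threshold relative to *HPRT1*, and *TWIST1*, a mesodermal bHLH factor, had counts of 3, 3 and 3 against 24, 37 and 22, a ratio of 7.87 (3.95 to 17.8). *TCF3* (-0.38) and *LDB1* (-0.32) were lower, whereas relative to *GAPDH* the call of *TCF3* was lost (0.18, adjusted p = 0.091) and *LDB1* was higher (0.23, adjusted p = 0.038). The summed TPM of these partners was 332 to 354 in hESCs and 337 to 373 in NMP-L.

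**Figure D4:**
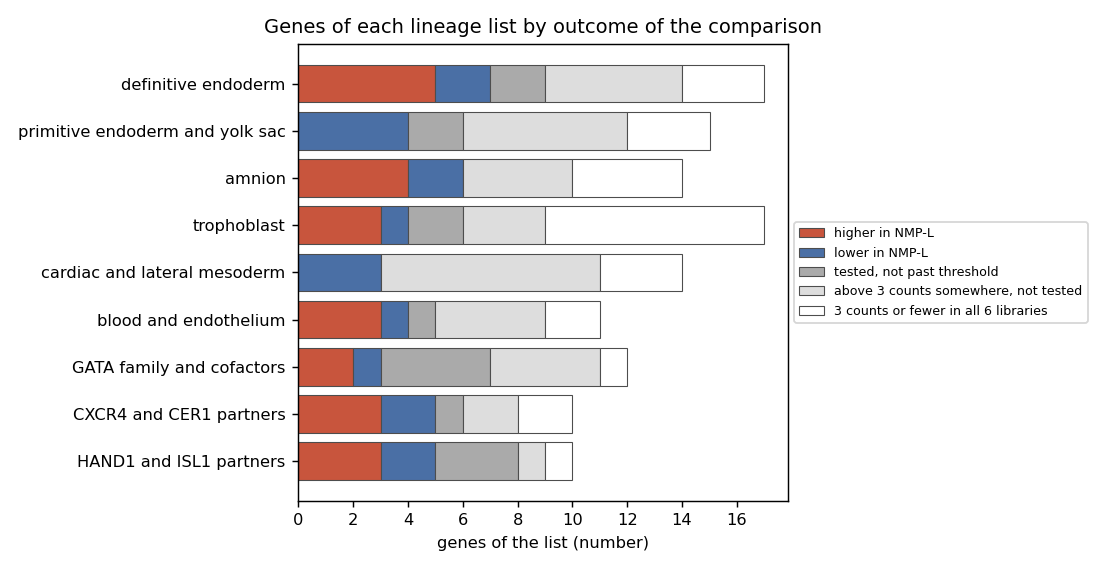
Number of genes (x axis) in each list (y axis), divided by outcome: higher or lower in NMP-L with an adjusted p under 0.05, tested and not past the threshold, above 3 counts in some library but not tested, or never above 3 counts. Members are included in their lists. The definitive endoderm list has 5 higher and 2 lower genes, primitive endoderm and yolk sac 0 and 4, and cardiac and lateral mesoderm 0 and 3.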

How the data were processed

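RNA-seq of polyadenylated RNA from 3 hESC and 3 NMP-L libraries was analysed. The authors deposited expected counts per gene estimated by RSEM, not normalized between libraries, and TPM, in which RSEM divides by effective transcript length and sets each library's total to 1000000. The submitters' processing notes list cutadapt 1.9.1, STAR 2.5.2a, RSEM 1.3.0, DESeq2 1.12.3 and the build hg19, and the annotation and the strand setting are not given in the sources used here. Fractional counts, from shared reads, occurred for 8.44% of genes and for 0 of the 10 markers.

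Counts were rounded, filtered with filterByExpr (minimum count 10), scaled by TMM and tested with glmQLFTest in edgeR 4.0.16 (R 4.3.3), with Benjamini-Hochberg adjustment over 15517 genes and a threshold of 0.05. The SE is the log2 fold change divided by the square root of F. A pseudocount of 0.1 was added to CPM before the log2 values were permuted in exact tests. Ratios of summed counts have exact binomial 95% intervals. The scripts were tested on simulated data. Alternatives used DESeq2 1.42.0, limma 3.58.1 on log2 TPM, other scalings and filters, a replicate block, and each library left out.

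Libraries were grouped by the labels, and no batch is given. P-values measure the spread between cultures of 1 cell line. No pair of libraries in a group agreed within sampling noise (lowest chi-square per degree of freedom 6.757). The floor of 3 counts was chosen and was the same for every library, whatever its depth. The members and lists were chosen with earlier results of these data known, and the lists share genes. List genes past the threshold were named, up to 6 per list by adjusted p, and other names were added after their values were seen. Positions come from GENCODE release 44 on GRCh37. Figures were drawn with matplotlib 3.10.9.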

Additional observations from a re-analysis of the deposited data

How the results depend on the processing

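The counts of markers differing (2), higher (2) and lower (0) were recomputed under 17 alternatives. Relative to *HPRT1*, which moved the median of all genes by -0.30, 1 marker differed and 1 was higher, because *HHEX* lost its call. Relative to *GAPDH*, which moved the median by 0.56, 3 differed. Without the filter 1 marker, *ISL1*, was lower and 3 differed. *GATA2* stayed past the threshold in all 17, with log2 fold changes of 1.38 to 2.47, those of *HHEX* being 0.49 to 1.34 and of *CXCR4* 0.17 to 1.05. With 1 library left out, 2 markers differed each time, *GATA2* ranged from 1.84 to 1.98, *HHEX* from 0.70 to 0.86 and *CXCR4* from 0.26 to 0.69 (adjusted p 0.061 without NMP-L replicate 2 and 0.51 without NMP-L replicate 3). The count of other list genes past the threshold was 25 to 40 (main 32), and of all genes 7087 to 11455 (main 8653).

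The main test did not pair libraries by replicate number. Same-numbered libraries had deviations from their group means correlated at -0.367, -0.0575 and -0.134. These values show no shared deviation and cannot settle whether same-numbered libraries came from the same experiment. With the replicate block 2 markers differed and 7560 of all genes, and the *HHEX* log2 fold change was 0.78 (adjusted p = 0.0031). Among list genes, *COL4A1*, *FOXA3*, *KIT*, *DAB2* and *TCF3* relative to *GAPDH*, *TFAP2C*, *TRPS1* and *TCF12* relative to *HPRT1*, *LAMA1* and *TFAP2C* with the block, *LAMA1* and *DAB2* on TPM, and *DAB2* by DESeq2 and with library size alone lost their calls. Depth limits the 7 untested markers.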

Other observations

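Genes of liver and yolk sac function that did not pass the filter had few reads and went in different directions in the fit without it. *AFP*, alpha-fetoprotein, had counts of 4, 11 and 15 in the hESC libraries and 0 in each NMP-L library (edgeR without the filter, adjusted p = 0.00051). *APOA1*, an apolipoprotein gene, had 7, 5 and 9 against 2, 2 and 2 (adjusted p = 0.022), whereas *APOA2* had 0, 2 and 0 against 10, 6 and 9 (adjusted p = 0.0075). *TTR*, transthyretin, was at 0 in all 6 libraries.

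NMP-L replicate 2 was the lowest library of its group for *GATA2* (6.44 CPM), *HHEX* (5.63 CPM) and *CXCR4* (1.72 CPM). The same library was lowest for *T* (14.0 CPM, against 24.1 and 26.3), *CDX2* (15.5 CPM, against 23.4 and 25.4) and *FOXA2* (12.6 CPM, against 21.2 and 22.4). *EOMES* was at 2.07, 2.29 and 2.68 CPM in the NMP-L libraries, with replicate 1 the lowest. These values were noticed after the data were seen, and their relation was not tested.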
